A study of Mus musculus with 4 samples.

Results

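The genes described here are those whose reads in both Bach1 knockout libraries were at most 0.5 times their level in either control library. They were picked from 13117 protein-coding genes outside chromosomes X and Y that were listed for every library and had at least 40 reads summed over the 4 libraries. The measure was CPM, a read count scaled to a common library total. A gene was taken when the higher of its cKO values was at most 0.5 times the lower of its control values. Of the 13117 genes, 33 met this rule (0.252%), and 59 met the mirrored rule for genes doubled in cKO (0.45%). When counts were scaled to microglial marker reads instead of the library total, 8 genes were halved and 107 doubled. The CPM of all 4 libraries chose the genes, so every difference between the genotypes given below for a member is a description and carries no test.

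The samples were microglia, the resident macrophages of the brain, from the cerebral cortex of mice at embryonic day 16, all untreated. The tested libraries, cKO 2 and cKO 5, were labelled Bach1 cKO, a conditional knockout that the series text ties to a driver named Cx3. The reference libraries, control 1 and control 6, were labelled Bach1 fl/fl, the floxed allele without mention of a driver. Library totals ran from 17233115 to 19305078 reads, so that 3 reads were worth between 0.155 and 0.174 CPM. Nothing in the labels ties the libraries to separate animals, and they do not describe how the cells were isolated. The series title concerns the role of BACH1 in microglial metabolism. Its text speaks of triplicates, but the series lists 2 libraries per genotype, and all 4 were analysed here.

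Bach1 encodes a heme-binding repressor that competes at antioxidant elements with the activator NRF2. Microglia also carry an interferon programme: a small basal output of antiviral and antimicrobial genes, such as immunity-related GTPases and IFIT and TRIM proteins, rises when type I or type II interferon reaches the cell. Immediate early genes such as Fos and Egr1 encode transcription factors that respond to stimulation within minutes, including that of tissue handling.

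Among the 33 halved genes were relatives of interferon-inducible genes (Gm5431, Trim21, Trim30c, Ifit1bl1, Ifi208, Iigp1 and Batf2), genes of muscle and actin structure (Plekhh2, Nexn, Cmya5, Mybpc3 and Myh7b) and genes known from germ cells (Nup210l, Zmynd15, Tex12, Fbxo47 and Ccdc63). This grouping was made after the values were seen. Almost all of them were weakly expressed: 30 of the 33 had fewer than 200 reads over all libraries, with a median of 65 reads against 1700 reads over all 13117 genes. Pooled over the libraries of a genotype, the control level was between 2.21 and 48.5 times the cKO level, with a median of 5.68 times. None of the 19 listed BACH1 and NRF2 targets, 23 glycolysis and lactate genes or 22 microglial markers that could have been members met the rule. Hk2 and Gapdh were on both the target list and the glycolysis list. Only 0.252% of all genes did, so nothing is read from a count of 0 in lists this small.

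Sequences just upstream of 4 relatives of interferon-inducible genes are given. Their windows differ in whether they hold a match to the interferon-stimulated response element. It was searched on both strands as GAAA, any 2 bases, then GAAA. RefSeq promoters (GRCm38.p6, from 250 bases before to 50 bases after the annotated start, 5′ to 3′ on the strand of the gene) were found for 22 of the 33 members. Members without such a promoter were not searched. For Ifit1bl1 and Gm5431 the bases after the start were not found in a GENCODE transcript, unlike those of Trim21 and Ifi208. Their start sites, and so the match or lack of one, are less certain. Capitals mark each match. The windows are chr7:102565433-102565732 (minus strand) for Trim21, chr1:173673415-173673714 (plus strand) for Ifi208, chr19:34601919-34602218 (minus strand) for the first of the Ifit1bl1 start sites, and chr11:48902103-48902402 (minus strand) for Gm5431, the member with the most reads, which holds no match.
Trim21: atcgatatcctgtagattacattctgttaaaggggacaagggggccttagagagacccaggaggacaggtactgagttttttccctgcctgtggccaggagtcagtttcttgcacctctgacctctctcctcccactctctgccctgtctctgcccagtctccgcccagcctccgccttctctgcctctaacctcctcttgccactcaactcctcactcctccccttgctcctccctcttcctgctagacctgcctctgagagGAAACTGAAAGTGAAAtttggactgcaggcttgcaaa
Ifi208: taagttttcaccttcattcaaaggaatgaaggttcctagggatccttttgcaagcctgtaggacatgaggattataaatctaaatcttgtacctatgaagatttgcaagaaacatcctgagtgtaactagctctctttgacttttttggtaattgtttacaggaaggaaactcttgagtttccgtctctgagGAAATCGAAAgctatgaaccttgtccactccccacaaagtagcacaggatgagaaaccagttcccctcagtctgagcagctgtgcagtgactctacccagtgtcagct
Ifit1bl1: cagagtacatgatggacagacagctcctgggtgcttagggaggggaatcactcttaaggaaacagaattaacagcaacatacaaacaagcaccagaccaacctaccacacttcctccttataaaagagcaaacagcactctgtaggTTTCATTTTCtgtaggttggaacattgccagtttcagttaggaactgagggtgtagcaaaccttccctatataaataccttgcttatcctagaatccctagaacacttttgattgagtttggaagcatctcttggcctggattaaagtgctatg
Gm5431: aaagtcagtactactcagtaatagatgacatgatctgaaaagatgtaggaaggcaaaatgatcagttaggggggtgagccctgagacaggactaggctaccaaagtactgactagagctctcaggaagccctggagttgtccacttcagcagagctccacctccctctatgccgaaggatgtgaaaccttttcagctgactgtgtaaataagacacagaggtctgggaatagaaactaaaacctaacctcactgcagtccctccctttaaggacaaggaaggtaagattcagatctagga
In Trim21 the matches begin 14 and 20 bases after the start and overlap, in Ifi208 the match begins 58 bases before it, and in Ifit1bl1 104 bases before it. Of the 22 members with a promoter, 5 held this motif (22.7%: Trim21, Ifi208, Ifit1bl1, Tex12 and Hbb-y), against 3.99% of the 27025 genes in the table and 3.83% of the 10098 genes that could have been members. Trim30c, Iigp1 and Batf2, the other named relatives, were not among these 5, for want of a promoter or of a match. The 4 windows shown therefore give no share for that group. The interferon-stimulated response element was added to the search after the values of the members had been seen.

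The other motifs were searched in the same windows. The BACH1 and NRF2 element TGANTCAGC, which contains the AP-1 motif TGANTCA, was in 0 of the 22 member promoters, in 1.37% of all genes and in 1.27% of those that could have been members. The AP-1 motif itself was in 1 member (4.55%; Entpd3), against 8.97% of all genes and 6.23% of possible members. TGACGTCA, the cyclic AMP response element, was in 0 members, 2.03% of all genes and 3.60% of possible members. GAGGAAGT, the site of the myeloid factor PU.1, was in 1 member (4.55%; Ifit1bl1), 3.69% of all genes and 3.71% of possible members. The E-box CACGTG was in 5 members (22.7%: Entpd3, Myh7b, Slpi, Tex12 and Treml1), against 8.09% of all genes and 11.4% of possible members. A match only says that these letters are present in the window.

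**Figure D1:**
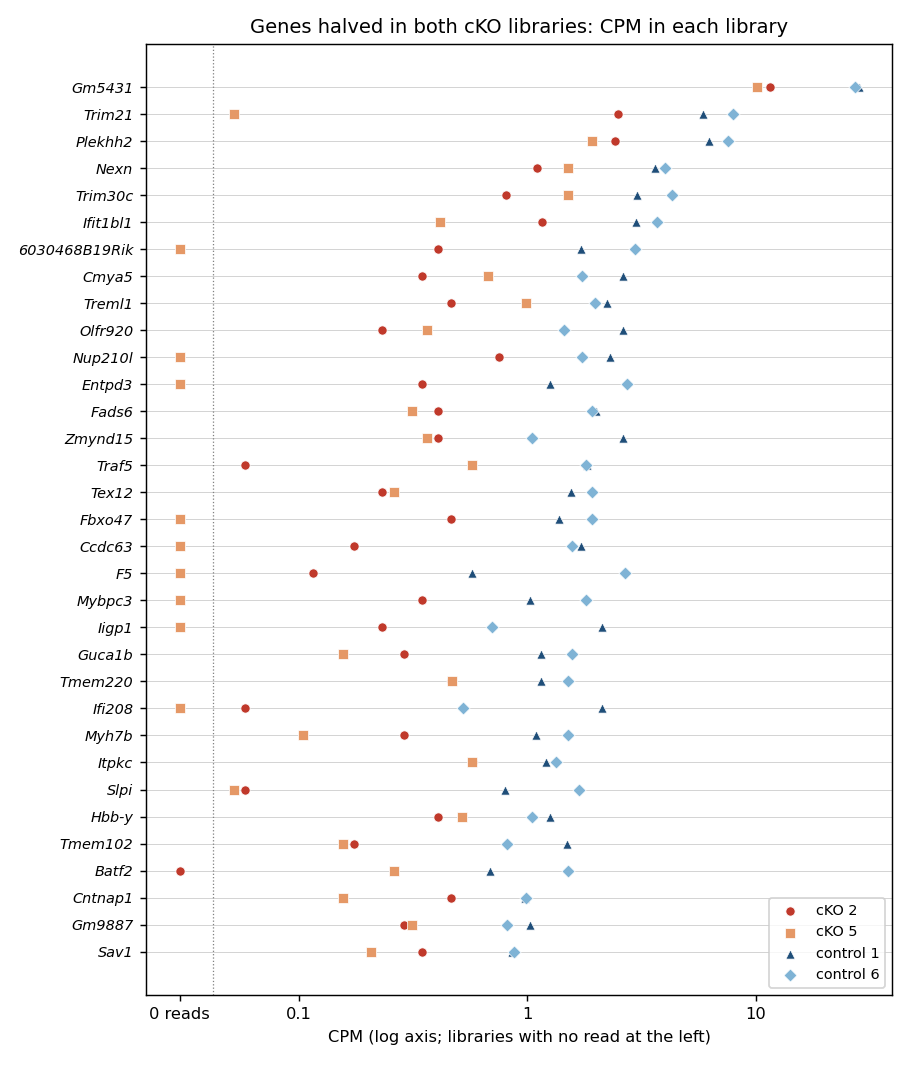
CPM of each of the 33 halved genes (rows, ordered by mean control CPM) in cKO 2, cKO 5, control 1 and control 6, on a log axis, with libraries that had no read drawn left of the dotted line. By the rule, both cKO points of a gene lie at or under 0.5 times its lower control point. Gm5431 is the member with the highest level, and 10 members had no read in a cKO library.

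The relatives of interferon-inducible genes held the best-covered member. Gm5431 (ENSMUSG00000058163, chromosome 11, 48887422 to 48902214 on the minus strand in GRCm38), which the deposited annotation matches to an interferon-inducible immunity-related GTPase, had 11.6 CPM in cKO 2 and 10.2 in cKO 5, against 28.2 CPM in control 1 and 27.3 CPM in control 6. The libraries of each genotype lay close together, with reads of 201 and 196 in cKO and 493 and 470 in control. The pooled cKO level was 0.391 times the control level (95% counting interval 0.347 to 0.44), and edgeR's log2 fold change was −1.43 ± 0.36 (SE). This SE was back-calculated from the fold change and the F statistic of edgeR's test, so it adds nothing to that test. Gm5431 did not pass the adjusted threshold. Gm5431 is named here although uncharacterised symbols were to be left out, a choice made after its values were seen. Close relatives of this gene family could share reads with it, so its count is uncertain.

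Trim21 (ENSMUSG00000030966, chromosome 7, 102557921 to 102565486), which encodes a ubiquitin ligase that binds antibody-coated particles in the cytosol, had 43 reads in cKO 2 (2.48 CPM) and 1 read in cKO 5 (0.0518 CPM), against 103 reads in control 1 (5.89 CPM) and 137 reads in control 6 (7.95 CPM). The cKO libraries differed 47.95-fold and the control libraries 1.35-fold. Trim30c, of the family of the Toll-like receptor regulator TRIM30A, had 0.809 and 1.5 CPM in the cKO libraries and 3.03 and 4.29 CPM in the controls. Its ratio of the higher cKO to the lower control value was 0.495, just inside the threshold, and it was not halved when CPM was divided by the trimmed-mean (TMM) factors of edgeR.

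Ifit1bl1 resembles Ifit1, whose product binds viral RNA. It had 1.16 and 0.414 CPM in cKO 2 and cKO 5, against 2.98 and 3.71 CPM in control 1 and control 6. Ifi208, a gene of the nucleic acid-sensing Ifi200 family, had 1 read in cKO 2 and none in cKO 5 (a floor of 3 reads there equals 0.155 CPM), against 37 and 9 reads in the controls. Its pooled ratio, cKO over control, was 0.0206, the lowest of the 33, but the counting interval ran from 0.000511 to 0.121. Iigp1, an immunity-related GTPase that attacks the vacuoles of intracellular parasites, had 4 and 0 reads in the cKO libraries against 37 and 12 reads in the controls. Batf2, a basic leucine zipper factor induced in macrophages by interferon, had 0 and 5 reads in cKO 2 and cKO 5, against 12 and 26 reads in the controls. In these 3 genes the controls differed from each other by 4.05-fold (Ifi208), 3.04-fold (Iigp1) and 2.197-fold (Batf2). Ifi208 and Batf2 were among the 6 members still halved after scaling to microglial marker reads.

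The annotation term for the cellular response to interferon-beta was held by 3 members (9.09%: Gm5431, Ifit1bl1 and Iigp1) and by 31 of the 13117 genes (0.236%). Innate immune response was held by 4 members (12.1%) and 1.84% of all genes. The deposited annotation gives Gm5431 the terms of the related Iigp1, so these counts are not independent of that match. The terms were read off after the members were known, and no enrichment was tested.

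The common interferon-induced genes were examined as a list of their own. Of 20 listed genes, 17 could have been members. Of these, 0 were halved (against 0.252% of all 13117 genes) and 0 were doubled (against 0.45%), so nothing is read from these counts. In edgeR 0 passed the adjusted threshold, in either direction. Both cKO values lay below both control values in 4 of the 17, against 5.86% of all 13117 genes, and above them in 1 (Stat2), against 9.26%. The 4 genes below were Ifit3, Usp18, Mx1 and Irf7. Ifit3, a partner of the IFIT1 protein, had 1.33 and 3.94 CPM in the cKO libraries and 6.75 and 6.38 CPM in the controls, and Usp18, which removes the ubiquitin-like modifier ISG15, had 0.635 and 1.86 CPM against 2.98 and 3.6 CPM. Other members of the list overlapped between the genotypes. Ifit2 had 20.5 and 12.7 CPM in cKO and 20.3 and 6.85 CPM in control, and Bst2, which tethers budding virus, had 31.8 and 100.3 CPM against 60.04 and 77.6 CPM. The median log2 ratio of mean CPM, cKO over control, was −0.30 over the list and 0.11 over all 13117 genes. Nlrc5, the activator of MHC class I genes, was the third gene outside the threshold, with 0.578 and 1.4 CPM in cKO and 2.86 and 2.73 CPM in control, a ratio of 0.513.

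**Figure D2:**
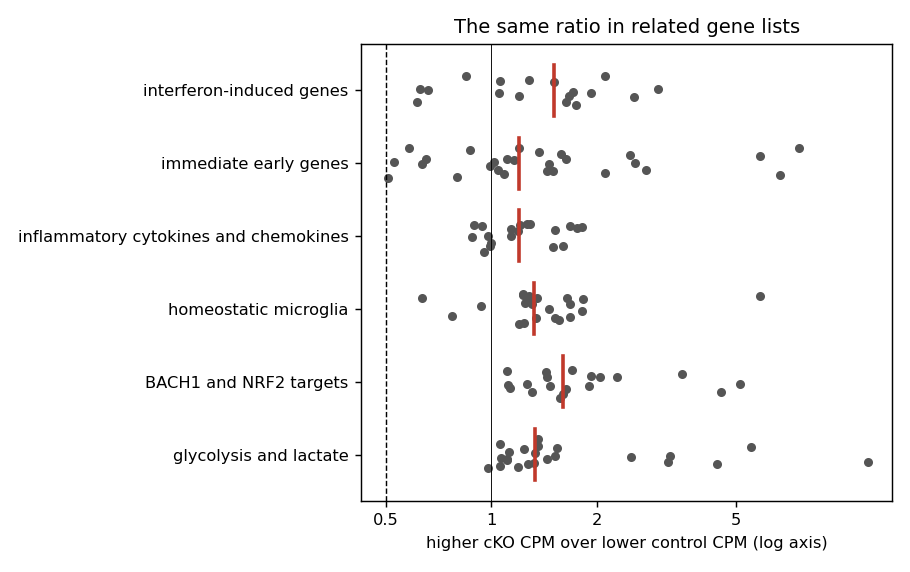
The higher cKO CPM over the lower control CPM (log axis) for each gene of 6 lists, with the list median as a red bar, a dashed line at the threshold of 0.5 and a solid line at 1. Ptgs2, with no read in control 1, has no such ratio and is not drawn. No gene of these lists lies left of the dashed line, and Egr1, at 0.507, is the closest to it.

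The other innate immune and secreted members were few in reads. Slpi, a secreted inhibitor of neutrophil proteases, had 1 read in each cKO library, against 14 reads in control 1 and 29 reads in control 6. Its ratio of higher cKO to lower control value, 0.0721, was the lowest of the members. Pooled, cKO had 0.0441 times the control level (95% counting interval 0.00517 to 0.169). Traf5, an adaptor of TNF family receptors, had 1 and 11 reads in cKO 2 and cKO 5, against 32 and 31 reads in the controls, so the controls agreed and the cKO libraries differed 9.86-fold. The best protein match that the deposited annotation gives for Traf5 is a LINE-1 retrotransposon protein, and the locus holds an antisense RNA and a microRNA within its exons.

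Treml1, a platelet receptor, had 0.462 and 0.984 CPM in cKO and 2.23 and 1.97 CPM in control. Its ratio of 0.499 was the closest to the threshold from within, and Treml1 was not halved with the size factors of DESeq2. F5, coagulation factor V, had 2 and 0 reads in the cKO libraries against 10 and 46 reads in the controls. Hbb-y, an embryonic globin gene, had 7 and 10 reads against 22 and 18 reads, with a ratio of 0.496. It was the 1 member found on any of the 28 lists, among the red cell markers, and reads of the other globin genes may be shared with it. The summed level of the red cell list was 220 CPM in cKO 2 and 113 in cKO 5, against 308 CPM in control 1 and 111 CPM in control 6, and the genotypes overlapped. The part of these markers in the low Hbb-y values was not tested.

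Genes of muscle and actin structure gave 2 of the better covered members. Plekhh2, which encodes a protein that stabilises actin filaments, had 42 and 37 reads in cKO (2.43 and 1.92 CPM), against 109 and 130 reads in control (6.24 and 7.54 CPM). Nexn, nexilin of the muscle Z-disc, had 1.1 and 1.5 CPM in cKO and 3.61 and 4 CPM in control. In both genes the libraries of a genotype differed by less than 1.4-fold. The pooled ratio, cKO over control, was 0.313 for Plekhh2 (95% counting interval 0.24 to 0.406) and 0.345 for Nexn (0.242 to 0.483). Cmya5, myospryn of striated muscle, had 6 and 13 reads in the cKO libraries and 46 and 30 reads in the controls, and an antisense RNA covers 20.7% of its exon bases. Mybpc3, cardiac myosin-binding protein C, had 6 and 0 reads against 18 and 31 reads, and Myh7b, a slow myosin heavy chain, had 5 and 2 reads against 19 and 26 reads.

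The 5 members known from germ cells had few reads each. Tex12, a component of the synaptonemal complex of meiosis, had 4 and 5 reads in cKO against 27 and 33 reads in control, with close values within each genotype. Nup210l, a nucleoporin relative of the testis, had 13 and 0 reads in cKO 2 and cKO 5 against 40 and 30 reads in the controls. Fbxo47, an F-box protein needed in meiosis, had 8 and 0 reads against 24 and 33 reads. Ccdc63, which builds the dynein arms of sperm tails, had 3 and 0 reads against 30 and 27 reads. Nup210l, Fbxo47 and Ccdc63 thus had no read in cKO 5. Zmynd15, a repressor in developing sperm cells, had 7 reads in each cKO library against 46 reads in control 1 and 18 in control 6. Its exons share 552 bases (12.5%) with the chemokine gene Cxcl16 on the other strand. Cxcl16 had 3.12 and 6.99 CPM in the knockouts against 7.15 and 7.72 CPM in control, and without knowledge of the strand the reads on the shared bases cannot be assigned to either gene. Spermatid development was the annotation of 3 members (9.09%: Ccdc63, Nup210l and Zmynd15) and of 0.412% of all 13117 genes.

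Of the signalling and surface proteins, Entpd3, an enzyme that breaks down extracellular ATP, had 6 and 0 reads in cKO 2 and cKO 5, against 22 and 47 reads in the controls. It lies 0.47 Mb from Cx3cr1 on chromosome 9 (120539818 to 120568327, against 119901616 to 120069879). Cx3cr1, the fractalkine receptor of microglia, had 747 and 2756 CPM in cKO and 4333 and 5158 CPM in control, a ratio of higher cKO to lower control value of 0.636, and so was no member. Of the 20 other genes within 1 Mb of Cx3cr1, 7 had a lower mean in cKO and 2 had both cKO values below both controls, against 5.86% of all 13117 genes. Entpd3, a member by the rule, was the 1 halved gene there, against 0.252% of all genes. The median log2 ratio of these 20 genes was 0.06. Itpkc, a kinase of inositol trisphosphate, had 10 and 11 reads in cKO against 21 and 23 reads in control, and 24.1% of its exon bases are shared with BC024978 on the other strand. Itpkc was not halved with TMM factors or with DESeq2 size factors. Sav1, the scaffold of the Hippo pathway, had 6 and 4 reads against 15 reads in each control, with 25.4% of its exon bases shared with Atl1. Atl1 had 64.4 and 9.43 CPM in the cKO libraries and 16.9 and 9.11 CPM in the controls. Cntnap1, a protein of the axon-glia junction, had 8 and 3 reads against 17 reads in each control.

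Olfr920, an olfactory receptor gene, had 4 and 7 reads in the cKO libraries against 46 and 25 reads in the controls. Guca1b, a calcium sensor of photoreceptors, had 5 and 3 reads against 20 and 27 reads. Fads6, a putative fatty acid desaturase, had 7 and 6 reads against 35 and 33 reads, with both genotypes tight. The transmembrane protein genes Tmem102 and Tmem220 had 3 and 3 and 8 and 9 reads in cKO, against 26 and 14 and 20 and 26 reads in control. The last 2 members have no assigned role: 6030468B19Rik had 7 and 0 reads in cKO against 30 and 51 reads in control, and Gm9887 had 5 and 6 reads against 18 and 14 reads, with 33.5% of its exon bases shared with Arf6 on the other strand.

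**Figure D3:**
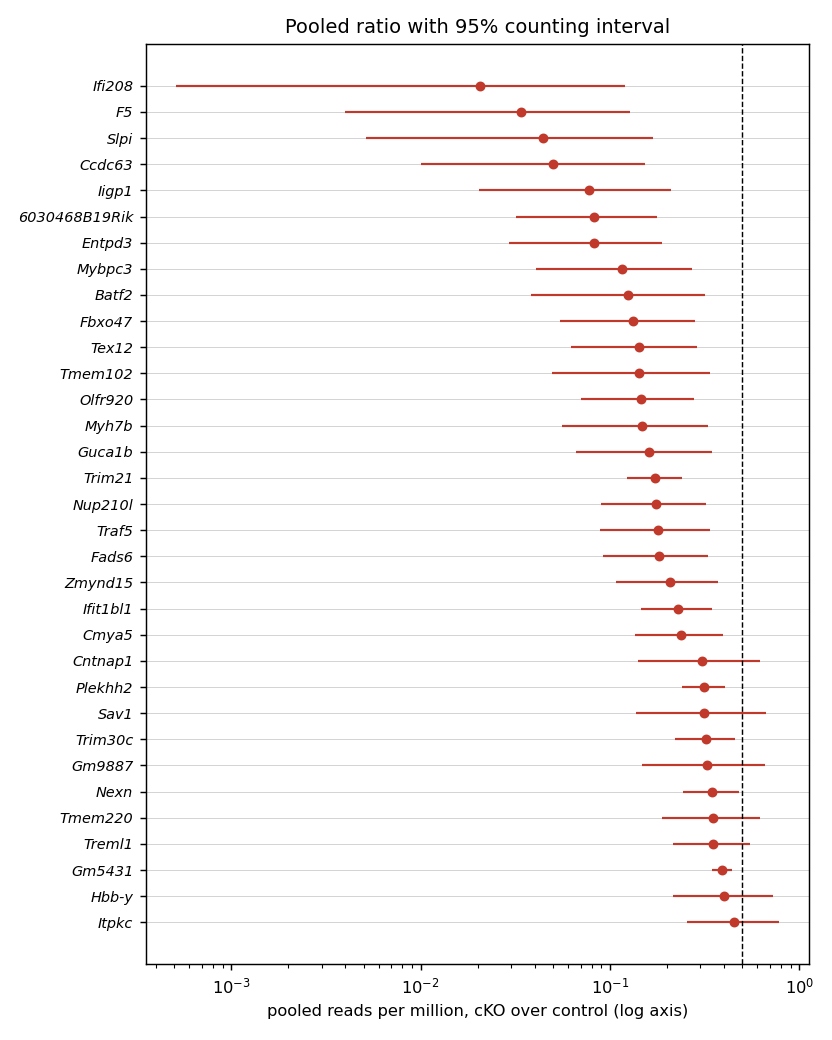
Pooled cKO over control level of each halved gene (point, log axis) with its 95% counting interval (line) and a dashed line at 0.5. The rule fixes that every point lies at or below 0.5. Intervals are widest for the genes with the fewest cKO reads, Ifi208, F5 and Slpi.

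Within each genotype the members were not uniform. No read was seen in cKO 5 for 9 members and in cKO 2 for 1 (Batf2), and 23 members had at least 1 read in every library. cKO 5 was the lower cKO library for 22 members and cKO 2 for 11. Over all 13117 genes, cKO 5 was the lower one in 65.4%. Control 6 was the higher control for 19 members and control 1 for 14, where 38.5% of all genes were higher in control 6. The control libraries differed by a median of 1.35-fold (1.01-fold for Cntnap1 and Sav1 to 4.66-fold for F5). Summed over the 33 genes, the level was 27.96 CPM in cKO 2 and 22.01 in cKO 5, against 91.3 CPM in control 1 and 96.8 CPM in control 6.

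The rule picked mostly genes near the counting limit. In the band of 40 to 99 reads, 26 of 1021 genes were halved (2.55%) and 36 doubled (3.53%). From 100 to 199 reads the counts were 4 and 15 of 848 genes, and from 200 to 999 reads 2 and 8 of 3090 genes. At 1000 reads or more 1 of 8158 genes was halved, Gm5431, and 0 were doubled. For the 2 libraries that decided the ratio of each member, the 95% counting interval of that ratio lay wholly below 0.5 for 4 of the 33 (Slpi, Tex12, Ccdc63 and Fads6) and included 0.5 for 29. It also included 0.5 for 133 genes outside the threshold. These intervals rest on the counts that chose the members, so they describe closeness to the threshold and do not test it. They cover counting error only, not the choice of genes. Per kilobase of exon, the median control level of the members was 0.531 CPM, against 4.54 CPM for all 13117 genes, and their median exon length was 3862 bases, against 4589 bases.

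**Figure D4:**
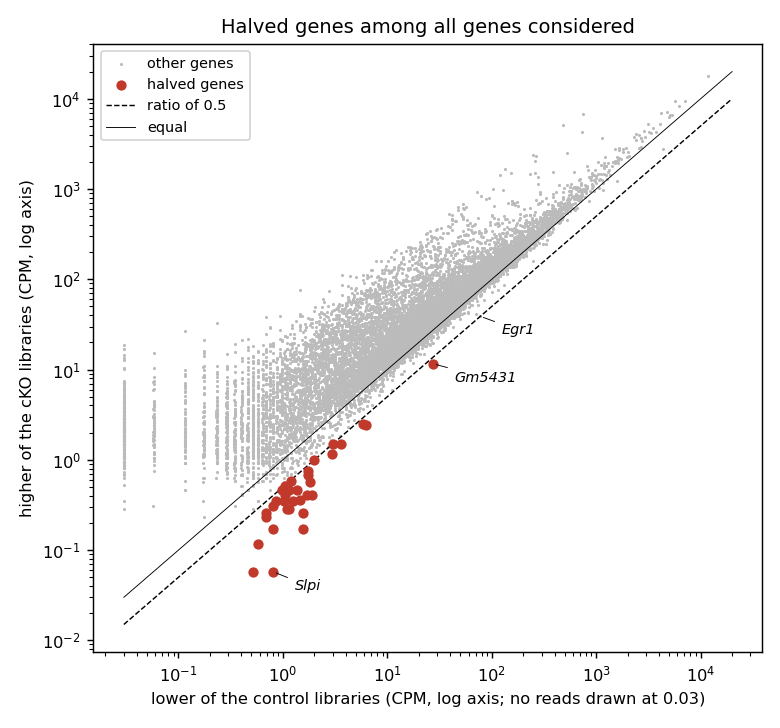
The higher cKO CPM (vertical, log axis) against the lower control CPM (horizontal, log axis) for the 13117 genes considered, with the 33 halved genes in red, a dashed line at a ratio of 0.5 and a solid line at equality. Gm5431 stands apart from the other members at 27.3 CPM in its lower control, and Egr1 lies just above the dashed line.

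Egr1, an immediate early gene for a zinc finger factor, had 25.2 and 39.1 CPM in the cKO libraries and 85.5 and 77.1 CPM in the controls. Its ratio of 0.507 made it the second gene outside the threshold, after Nkx6-3 (0.503), which had 3 and 10 reads in cKO against 18 and 28 reads in control. Fos had 24.96 and 40.9 CPM in cKO and 156 and 70.1 CPM in control, and Nr4a1, an orphan nuclear receptor, had 1.85 and 1.71 CPM against 3.49 and 3.95 CPM. Of the 27 immediate early genes that could have been members, 0 were halved, 8 had both cKO values below both controls (Egr1, Fos, Nr4a1, Egr2, Zfp36, Junb, Jun and Klf6) and 1 above (Ier5). Over all 13117 genes these shares were 0.252% halved, 5.86% below and 9.26% above. The median log2 ratio of the list was −0.32. On other lists it was −0.59 for inflammatory cytokines and chemokines, of which 6 of 20 lay below, and −0.57 for homeostatic microglia markers, of which 3 of 22 did. None of the 19 BACH1 and NRF2 targets had both cKO values below both controls, and 3 had them above (Nqo1, Txnrd1 and Slc7a11). Hmox1, the heme oxygenase gene repressed by BACH1, had 190 and 1064 CPM in cKO and 558 and 590 CPM in control. Of 23 glycolysis and lactate genes 1, Pfkl, lay below and 0 above. Against 5.86% of all genes below and 9.26% above, nothing is read from such small counts. Hk2 had 33.4 and 104 CPM in cKO and 93.7 and 119 CPM in control. Bach1 itself had 29.98 and 35.4 CPM in the knockouts against 45.8 and 21.6 CPM in control, and as the labels do not say which exons are floxed, these whole-gene values do not check them. In all these lists 0 genes passed the adjusted threshold in edgeR.

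Cell type markers differed between libraries of the same genotype. The 23 homeostatic microglia markers summed to 12740 CPM in cKO 2 and 46568 in cKO 5, against 33864 CPM in control 1 and 52541 CPM in control 6, and no listed marker was at 0 in any library. Projection neuron markers summed to 3746 and 306 CPM in the knockouts, against 1101 and 338 CPM in control, and endothelial markers to 2673 and 355 CPM against 3450 and 639 CPM. Fewer cells of a type and less RNA per cell cannot be told apart in such data. Scaling to microglial markers left 6 of the 33 members halved (Slpi, Traf5, Tex12, Batf2, Ccdc63 and Ifi208), and it shifted the median log2 ratio of all genes by 1.10. The median log2 ratio of mean values over the members was −1.29 with this scaling and −2.45 with CPM. It was close to 0 for several members: −0.08 for Itpkc (−1.14 with CPM), −0.26 for Gm5431 (−1.3502), −0.26 for Cntnap1 (−1.67) and −0.41 for Sav1 (−1.64). The part of cell composition in the members' values was not tested.

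**Figure D5:**
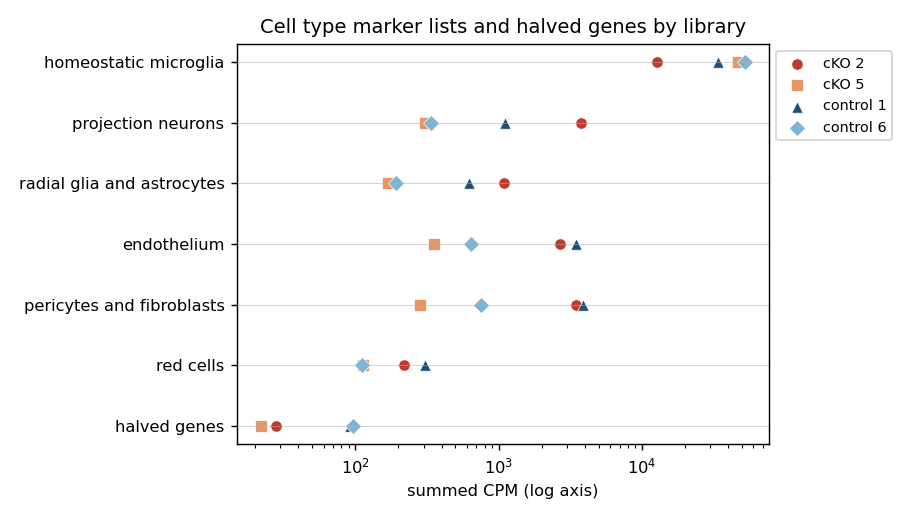
Summed CPM (log axis) of 6 cell type marker lists and of the 33 halved genes in cKO 2, cKO 5, control 1 and control 6. Microglial markers are lowest and neuronal markers highest in cKO 2, and the summed halved genes are lower in both cKO libraries, at 27.96 and 22.01 CPM, than in the controls, at 91.3 and 96.8 CPM.

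By position, 8 of the 33 members lay on chromosome 11 (0.705% of its 1135 genes) and 4 on chromosome 7 (0.389%), against 0.252% of all genes. Chromosome 16, which carries Bach1, held 0 among its 430 genes, as did chromosomes 4, 6, 8, 10, 14 and 15. Nothing is read from such small counts. No 2 members were closer than 0.529 Mb, the gap between Hbb-y and Trim30c on chromosome 7, with Trim21 a further 1.29 Mb away. Of 183 other genes within 100 kb of a member, 0 were halved, against 0.252% of all genes. Of the same neighbours, 17 had both cKO values below both controls (9.29%, against 5.86% of all genes), and their median log2 ratio was 0.04. Close relatives in these windows had other patterns: beside Trim30c, Trim30a had 15.5 and 85.7 CPM in the knockouts against 57.2 and 61.7 CPM in control, and beside Ifi208, Ifi204 had 8.55 and 30.9 CPM against 18.03 and 18.2 CPM.

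In edgeR's quasi-likelihood test, 0 of 15951 genes were lower and 0 higher in cKO at an adjusted p under 0.05 (0%), and 49 had an unadjusted p under 0.05 (21 lower). DESeq2 also gave 0, with 112 unadjusted. Of the 33 members 31 were tested and 0 passed. Such p-values measure only the spread between these 4 samples. That spread was wide in edgeR (common dispersion 0.425, with 2 residual degrees of freedom), so counts of 0 do not show that no gene differed. In the authors' deposited tables, each of 1 cKO against 1 control library, 30 of the 33 members were called down in all 4 tables. Over all 13117 genes, the authors' deposited tables made such calls for 30 (0.229%), all of them members. Calls and rule rest on the same libraries.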

How the data were processed

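RNA from embryonic cortical microglia was sequenced in 2 cKO and 2 control libraries, grouped by their titles. Per the submitters' processing notes, Bowtie2 2.2.3, TopHat2 2.0.12 and HTSeq 0.6.0 were used with mm9, with roles and settings not given. Gene positions in the deposited tables matched the GRCm38 annotation (GENCODE vM21) within 5000 bp for 99.1% of 13107 genes, and coordinates follow that build. Raw read counts per Ensembl gene came in 4 tables that the authors deposited, pairing 1 cKO with 1 control library. The deposited normalized values are CPM, a count of 0 being given as 0.5 reads. Dividing these values gives the deposited fold, with its log2 beside it, and the deposited p-values come from a test not given in the sources used here. No strand setting is given, so reads on bases that genes share cannot be assigned.

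Tables were joined on the gene ID (18723 genes listed for every library). CPM was recomputed as count over library total, and a listed count of 0 was allowed. Members and lists were chosen with earlier results of these data known. All members were eligible to be named. Values in every library were planned for the 24 members of highest mean control CPM, the 6 of lowest ratio, up to 4 per list and the 3 genes on each side of the threshold, uncharacterised symbols apart, and for Bach1, Cx3cr1, Fos, Egr1, Hmox1 and Hk2. All 33 were then given. Pooled ratios carry exact 95% binomial (Clopper-Pearson) intervals, for counting error only. All genes were tested two-sided with edgeR 4.0.16 (R 4.3.3; TMM factors, filterByExpr with a minimum count of 10, Benjamini-Hochberg adjustment, 2 residual degrees of freedom), and with DESeq2 1.42.0 as an alternative. The script was tested on simulated data. Alternatives changed the scaling, the read minimum, the threshold, the genes admitted and the libraries.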

Additional observations from a re-analysis of the deposited data

How the results depend on the processing

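Against 33 halved genes, dividing CPM by TMM factors gave 35 genes (31 of the 33 among them) and DESeq2 size factors 34 (30 of the 33). Itpkc and Trim30c were lost with both, and Treml1 with the DESeq2 factors. Scaling to microglial marker reads gave 8 genes (6 of the 33) and shifted the median log2 ratio of all genes by 1.10. A minimum of 10 reads gave 72 genes and one of 200 reads 3 genes (Gm5431, Plekhh2 and Trim21); a threshold ratio of 0.4 gave 22 and one of 0.6 gave 52; all biotypes gave 65, and chromosomes X and Y 35. Asking for a read in every library, an alternative chosen after seeing the data, left 23. Leaving out 1 library moved the count to between 96 and 1071: 1071 without cKO 2, 876 without cKO 5, 96 without control 1 and 164 without control 6. By the rule, leaving out a library can only keep or add genes, and all 33 members were kept each time. Why more genes were added without a cKO library than without a control library was not tested. Under microglial scaling the members' median log2 ratio of means was −1.29, against −2.45 with CPM, and Itpkc was at −0.08 and Gm5431 at −0.26. The rule fixes the sign of the members when a library is left out. The log2 ratio of Bach1 (−0.04) became 0.82 after microglial scaling and ran from −0.49 to 0.60 with 1 library left out, above 0 without cKO 2 (0.07) or control 1 (0.60). That of Hmox1 (0.13) ran from −1.60, without cKO 5, to 0.89, without cKO 2. edgeR gave 0 genes with RLE factors, without a filter and without each library, as did DESeq2; with a library left out, its lone partner was assumed to vary like the other genotype. No list's count of halved genes moved with TMM factors. No paired analysis was possible because the genotypes share no replicate number. At these depths, differences in genes under about 200 reads rest on few reads in cKO.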

Other observations

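Trim21 was not alone in having almost no reads in cKO 5. Trim34b, another tripartite motif gene within 100 kb of Trim30c on chromosome 7, had 2.66 CPM in cKO 2 and 0.104 in cKO 5, against 4.81 CPM in control 1 and 3.37 CPM in control 6. Other genes of that cluster were highest in cKO 5: Trim30d had 0.635 and 14.9 CPM in the cKO libraries and 6.18 and 6.91 CPM in the controls, and Trim5 had 1.39 and 13.8 CPM against 4.46 and 3.95 CPM. Counts of close copies in this cluster are uncertain. These genes were singled out after their values were seen.

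Unc5cl, a gene of innate immune signalling within 100 kb of Treml1, had 0.809 and 2.85 CPM in the knockouts against 3.55 and 9.05 CPM in control, with every cKO value below every control value. Bco2, a carotenoid-cleaving enzyme gene beside Tex12, had 15.5 and 31.6 CPM against 35.6 and 58.1 CPM. Both genes were picked after their values were seen, from the 17 of 183 neighbours with this pattern (9.29%, against 5.86% of all genes).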
